A study of Mus musculus with 35 samples.

Results

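Microglia from wild-type mice whose doxycycline diet had been restored were compared with microglia from wild-type mice still without the drug. The members were chosen by genotype and diet label alone: 3 libraries of mice that spent 6 weeks off doxycycline and then 1 week on it (Controls 1 to 3, here the returned mice), and 4 libraries of mice taken after 2 weeks off (Controls 10 to 13, here the off mice). These are 7 of the 35 libraries in the series. The series profiled sorted spinal cord microglia of rNLS8 mice, which carry NEFH-tTA and tetO-hTDP43 transgenes, and of littermates. In rNLS8 mice (+/+) the promoter of a neuronal neurofilament gene drives a doxycycline-repressed activator, so that a human TDP-43 is made in neurons when the drug is withdrawn. The labels describe the wild-type mice as (-/-), so that the drug should act in them without a transgene to switch. All mice were of a mixed C57BL/6J X C3HeJ F1 background and were kept on doxycycline until 8 to 12 weeks of age, so the off mice had also received the drug earlier in life. The time since withdrawal differs between the groups as well as the current diet. With it differs the age at collection, and by these labels the returned mice were the older. All returned mice have the date code 0810 and all off mice the date code 1019. Diet, time, age and date code therefore cannot be told apart between them. What the date code records (a sort, an extraction or a sequencing run) is not stated.

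Other control libraries are used as reference. Controls 4 to 9 are rNLS8 mice kept on doxycycline, with the transgene silent, and share the date code 0810 with the returned mice. Control 14 is the 1 wild-type mouse taken after 6 weeks off, with the date code 1102, and has no replicate.

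Microglia are the resident macrophages of the spinal cord. Doxycycline is a tetracycline antibiotic. It is known to inhibit translation on mitochondrial ribosomes and matrix metalloproteinases, to alter the gut flora and to dampen inflammatory activation of macrophages, which made those gene groups of interest here. Microglia also respond to glucocorticoids, the hormones of the adrenal stress and day-night rhythms, through a nuclear receptor that induces a well-known set of target genes.

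Levels are given as CPM, which scales each count to the normalized size of its library. The total expected count was 13.9 to 19.1 M fragments per returned library (M, mega) and 15.9 to 17.4 M fragments per off library. The sorting antigens and identity genes were high in all 7 libraries. Itgam (CD11b) stood at 1570, 1550 and 1590 CPM in the returned mice and at 2230, 1110, 1590 and 1740 CPM in the off mice. Ptprc (CD45), the other sorting antigen, was at 326, 370 and 395 CPM against 475, 419, 473 and 420 CPM. All returned libraries were thus below all off libraries for Ptprc. The 8 markers of microglia and of the sort summed to 63100 to 68200 CPM in returned mice and 55200 to 69600 CPM in off mice. The deposited TPM columns do not sum to their full total, so that features not in the table hold the rest. Spike-ins, which the authors' table title says were removed, may be part of it. The missing TPM share was 14.65 ± 0.67% in returned mice (SD, n = 3) and 6.68 ± 3.58% in off mice (n = 4). No library overlapped between the groups, and the exact two-sided permutation test gave p = 0.0571, the smallest that 3 against 4 libraries can give. In the rNLS8 mice of the same date code that share was 14.36 to 30.75%. Erythroid markers summed to 107 and 136 CPM in Controls 12 and 13, the 2 female off mice, and to at most 0.496 CPM in the other 5 libraries. Hbb-bs, a defining haemoglobin gene, was at 0 in all 3 returned mice. The same 2 off libraries held the neutrophil granule gene Ngp at 51.9 and 33.4 CPM, against at most 0.114 CPM in the other 5. Of the 14 neutrophil markers, 12 were tested and 9 were lower at an unadjusted p under 0.05 in returned mice, beside 4.14% of all tested genes. Their sum ran from 449 to 600 CPM in returned mice and from 538 to 853 CPM in off mice. Mmp8, Mpo, Mmp9, Elane, Retnlg and Lcn2 were at 0 in all 3 returned mice, of which Mpo was also at 0 in all 4 off mice, and Mmp8, Mmp9 and Retnlg in all of them but Control 12. Oligodendrocyte markers summed to 1450 to 2030 CPM in returned mice and 1720 to 3390 CPM in off mice. Monocyte markers summed to 9.57 to 17.5 CPM against 16.4 to 30.2 CPM, B cell markers to 274 to 339 CPM against 300 to 515 CPM, and astrocyte markers to 1360 to 1650 CPM against 1340 to 1760 CPM. The part of these differences in the results below was not tested, apart from fits without Controls 12 and 13, which are given where they move a printed difference or list median by over 1.5 times.

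**Figure D1:**
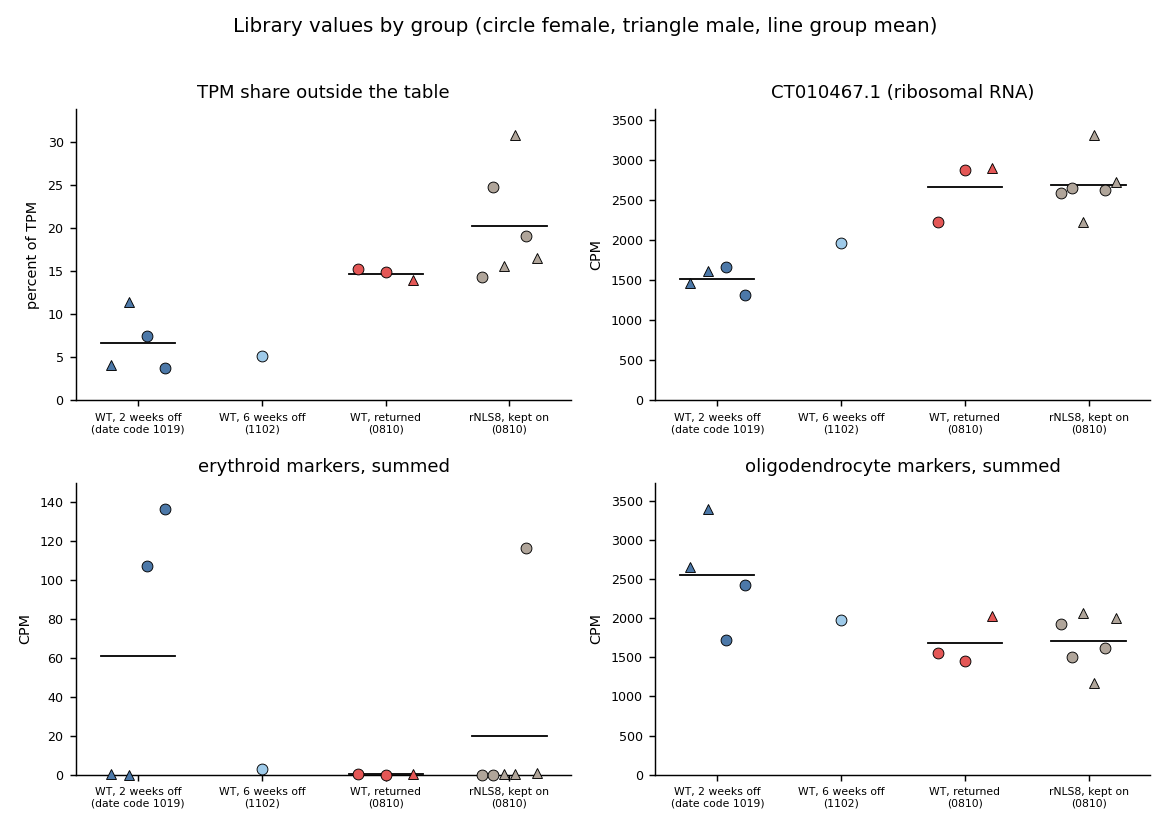
Library values in the 14 control libraries, with the diet group and date code on the horizontal axis. The panels show the percent of TPM missing from the deposited columns, the level of the ribosomal RNA gene CT010467.1 in CPM, and the summed CPM of erythroid and of oligodendrocyte markers. Points are libraries (circles female, triangles male) and lines are group means. The first 2 panels separate date code 0810 from the others, and erythroid RNA is high in Controls 12, 13 and 8 only.

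No gene passed the test between returned and off mice. edgeR's quasi-likelihood test called 0 of 15164 genes (0%) at an adjusted p under 0.05, and 1079 genes had an unadjusted p under 0.05. Of those, 451 (2.97%) were higher and 628 (4.14%) were lower in returned mice. All 3 returned libraries lay above all 4 off libraries for 664 genes (4.38%) and below them for 829 (5.47%). DESeq2 called 127 genes, 52 higher and 75 lower. edgeR called 184 genes when the filter on low counts was dropped, all of them also present in the filtered table. Its prior degrees of freedom, which set how far each gene's spread is drawn to the common trend, had a median of 6.13 with the filter and were infinite (Inf) without it. The median difference over all genes was -0.0127 on the log2 scale. The median standard error was 0.36. All differences below are log2 values, returned minus off, with SE, and none of them passed the adjusted test. P-values here measure the spread between these libraries, which the labels describe only as samples of a group.

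**Figure D2:**
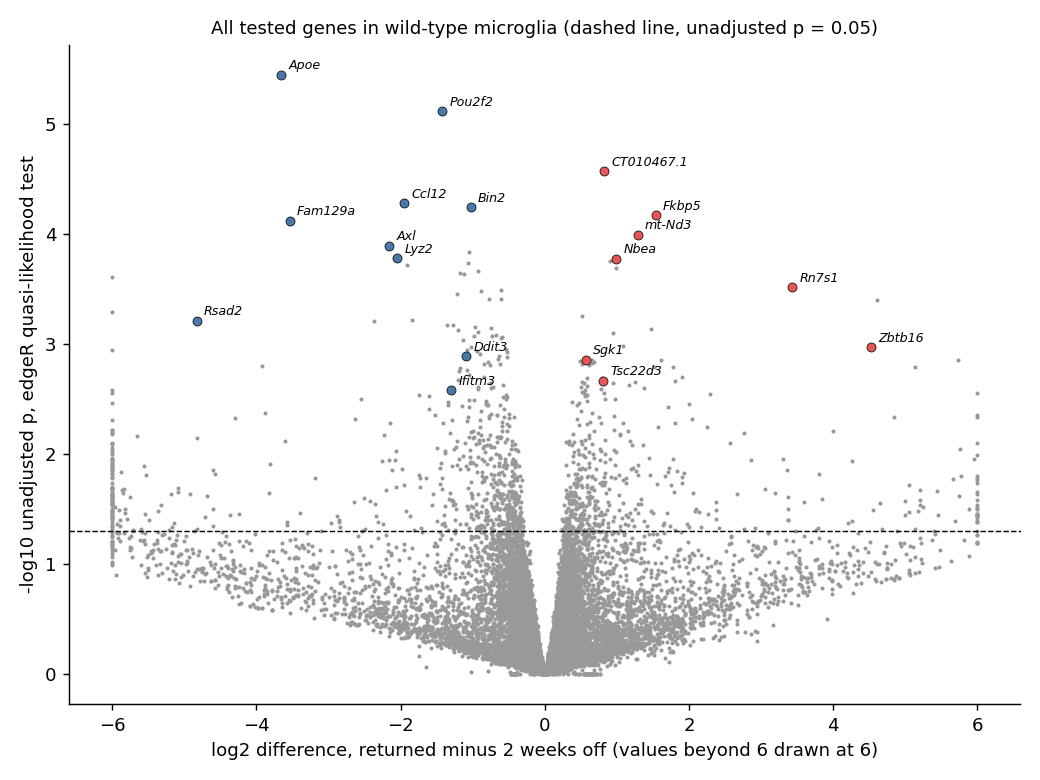
Difference between returned and off wild-type mice for the 15164 tested genes. The horizontal axis is the log2 difference and the vertical axis is minus log10 of the unadjusted p from edgeR. Named genes are drawn larger, blue where lower and red where higher in returned mice. Apoe and Pou2f2 have the smallest p among the lower genes, and CT010467.1 and Fkbp5 among the higher ones.

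Known targets of the glucocorticoid receptor were on the higher side. Of 19 tested members of the list, 6 were higher at an unadjusted p under 0.05, 0 were lower, and the same 6 had returned mice above all off mice, beside 2.97% and 4.38% of all genes. They were Fkbp5, Tsc22d3, Sgk1, Ddit4, Txnip and Zbtb16. Ddit4 and Txnip lie outside the naming rule and were named after their values were seen. Fkbp5 (chromosome 17, 28399094 to 28517527, mm10) encodes a co-chaperone that binds the receptor complex and limits its activity. It stood at 354, 320 and 328 CPM in the returned mice and at 93.8, 65.5, 121 and 176 CPM in the off mice. Every returned library was thus above the highest off library, and the difference was 1.54 ± 0.28 (adjusted p = 0.164). Control 14, off for 6 weeks, had 84.9 CPM, inside the range of the off mice.

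Tsc22d3, which encodes the leucine zipper protein GILZ that mediates anti-inflammatory steroid actions, was at 547, 508 and 617 CPM in returned mice. The off mice had 184, 234, 402 and 464 CPM, with the 2 females above the 2 males, and the difference was 0.81 ± 0.22 (adjusted p = 0.373), with 1.37 without Controls 12 and 13 and 0.52 without Control 3. Sgk1, a kinase of salt and stress responses, was at 1540, 1270 and 1360 CPM against 874, 891, 995 and 928 CPM. Its difference was 0.57 ± 0.15 (adjusted p = 0.321). Ddit4, an inhibitor of mTOR signalling, was at 73.2, 64.6 and 71.5 CPM against 5.35, 1.6, 37 and 51.9 CPM. The off mice were thus split, with Controls 12 and 13 high and Controls 10 and 11 low, and the difference of 1.91 ± 0.72 became 4.13 without Controls 12 and 13. Zbtb16, a transcriptional repressor, was near the floor in off mice at 0.0601, 0, 0.451 and 0.878 CPM and reached 7.87, 6.15 and 9.02 CPM in returned mice. Txnip, an inhibitor of thioredoxin, was at 771, 691 and 763 CPM against 566, 589, 575 and 629 CPM, a difference of 0.34 ± 0.11.

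The receptor gene itself did not stand apart, with Nr3c1 at 237, 228 and 218 CPM in returned mice and 241, 166, 230 and 210 CPM in off mice. Per1, a clock gene that glucocorticoids also induce, overlapped between the groups at 7.8, 6.37 and 11.5 CPM against 3.55, 4.18, 12.7 and 23.1 CPM. The median of the list was 0.40, beside -0.0127 over all genes, and 15 of 19 members were positive. Without Controls 12 and 13 the median was 1.02, with 8 members higher and 1 lower at an unadjusted p under 0.05. The mean of the list on the log2 CPM scale ran from 4.19 to 4.83 in returned mice and from 3.08 to 4.43 in off mice, so the groups overlapped at Control 13. In promoters of 17 matched members, the receptor's hexamer AGAACA, a motif chosen after the values were seen and searched on both strands, was present in 3 (17.6%), beside 18.2% of 27025 genes.

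**Figure D3:**
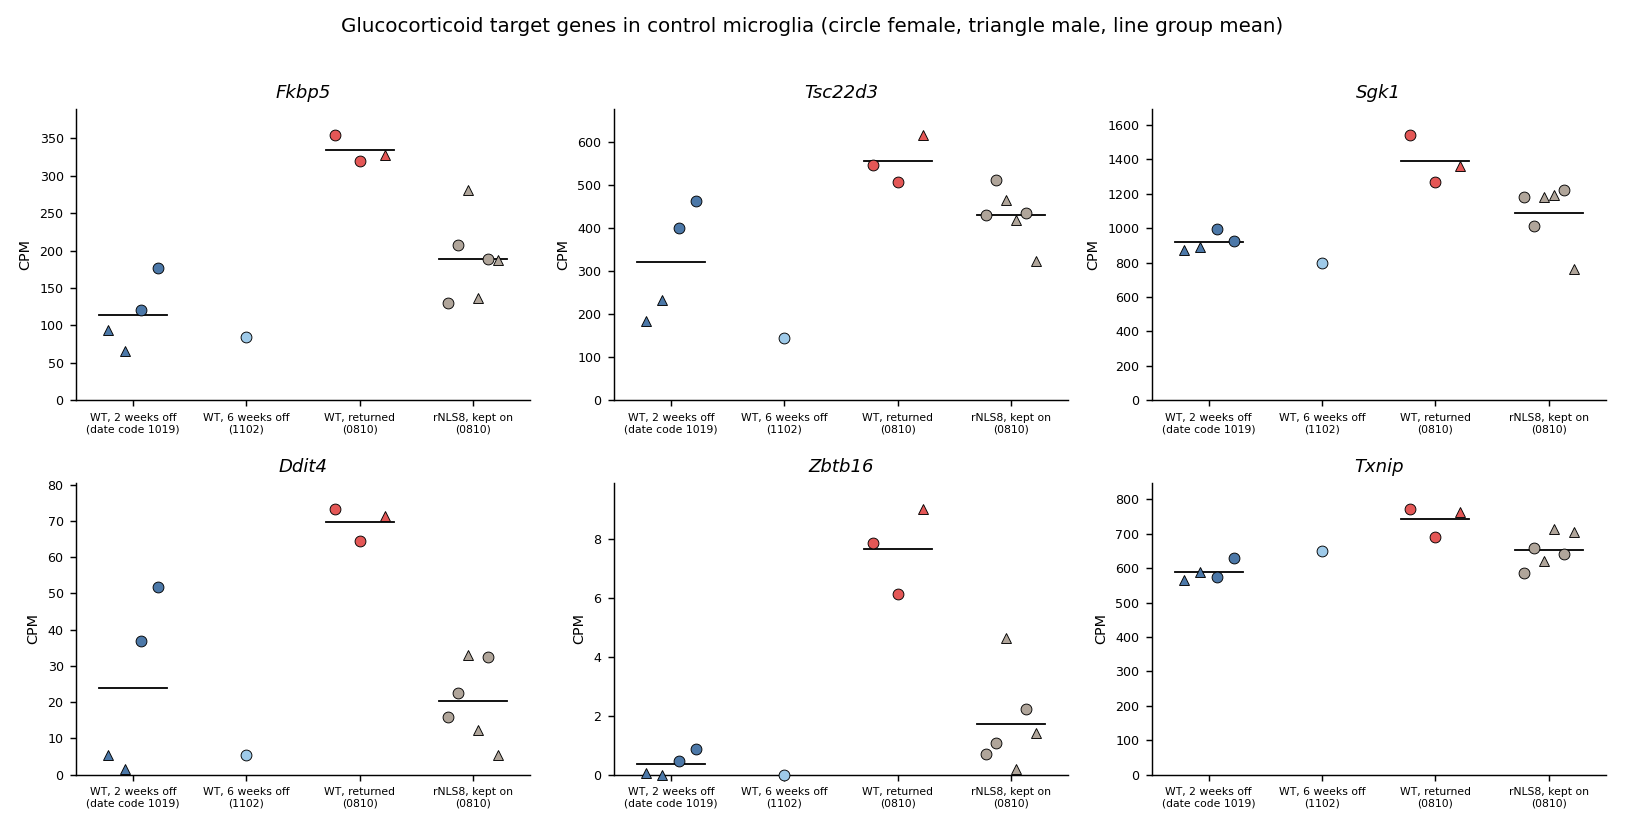
Levels of 6 glucocorticoid target genes in CPM for each control library, by diet group and date code. Circles are females, triangles males and lines group means. In each panel all 3 returned mice lie above all 4 off mice. The naming rule required this of Fkbp5, Sgk1 and Zbtb16, and Ddit4 and Txnip were named after their values were seen. For Fkbp5, Sgk1, Ddit4 and Zbtb16 the returned mice also lie above all 6 rNLS8 mice that share their date code.

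Several genes of activated microglia lay on the lower side. Apoe (chromosome 7, 19696109 to 19699188), which encodes the lipid carrier apolipoprotein E, had the smallest p of all genes. It stood at 29.1, 36.3 and 53.1 CPM in the returned mice and at 204, 1100, 343 and 411 CPM in the off mice. The groups were far apart, and the spread among off mice was wide, with Control 11 highest. The difference was -3.66 ± 0.52 with an adjusted p of 0.0535, just outside the threshold, and over the alternatives it ran from -4.06 to -2.96. Control 14 had 219 CPM, near the lowest off mouse.

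Of 29 tested disease-associated microglia genes, 5 were lower and 1 was higher at an unadjusted p under 0.05, beside 4.14% and 2.97% of all genes. The median was -0.22, -0.50 without Controls 12 and 13, -0.35 without Control 12 alone and -0.10 without Control 11. Axl, a receptor for dying cells, was at 43.3, 36.1 and 11.5 CPM in returned mice and at 115, 87.8, 93.1 and 136 CPM in off mice, a difference of -2.16 ± 0.42 (adjusted p = 0.182). Lyz2, the lysozyme of macrophages and also of monocytes and neutrophils, was at 63.8, 213 and 92.2 CPM against 472, 892, 256 and 530 CPM. Its difference was -2.05 ± 0.41 (adjusted p = 0.182), and Control 2 came close to the lowest off mouse. Spp1, which encodes osteopontin, was at 27.4, 34.6 and 19.4 CPM against 95.1, 98.4, 68.1 and 66.4 CPM, a difference of -1.46 ± 0.55. Clec7a, a receptor for fungal glucans, overlapped between the groups with a difference of -0.89 ± 0.40, which was -1.48 without Controls 12 and 13 and -0.47 without Control 11. The member on the higher side was the chemokine gene Ccl6, at 325, 208 and 471 CPM against 140, 235, 110 and 216 CPM, a difference of 0.95 ± 0.26. Spp1, Clec7a and Ccl6 were named after their values were seen. Trem2, the receptor that licenses this state, overlapped at 1250, 1240 and 1340 CPM against 1310, 1860, 999 and 1550 CPM.

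**Figure D4:**
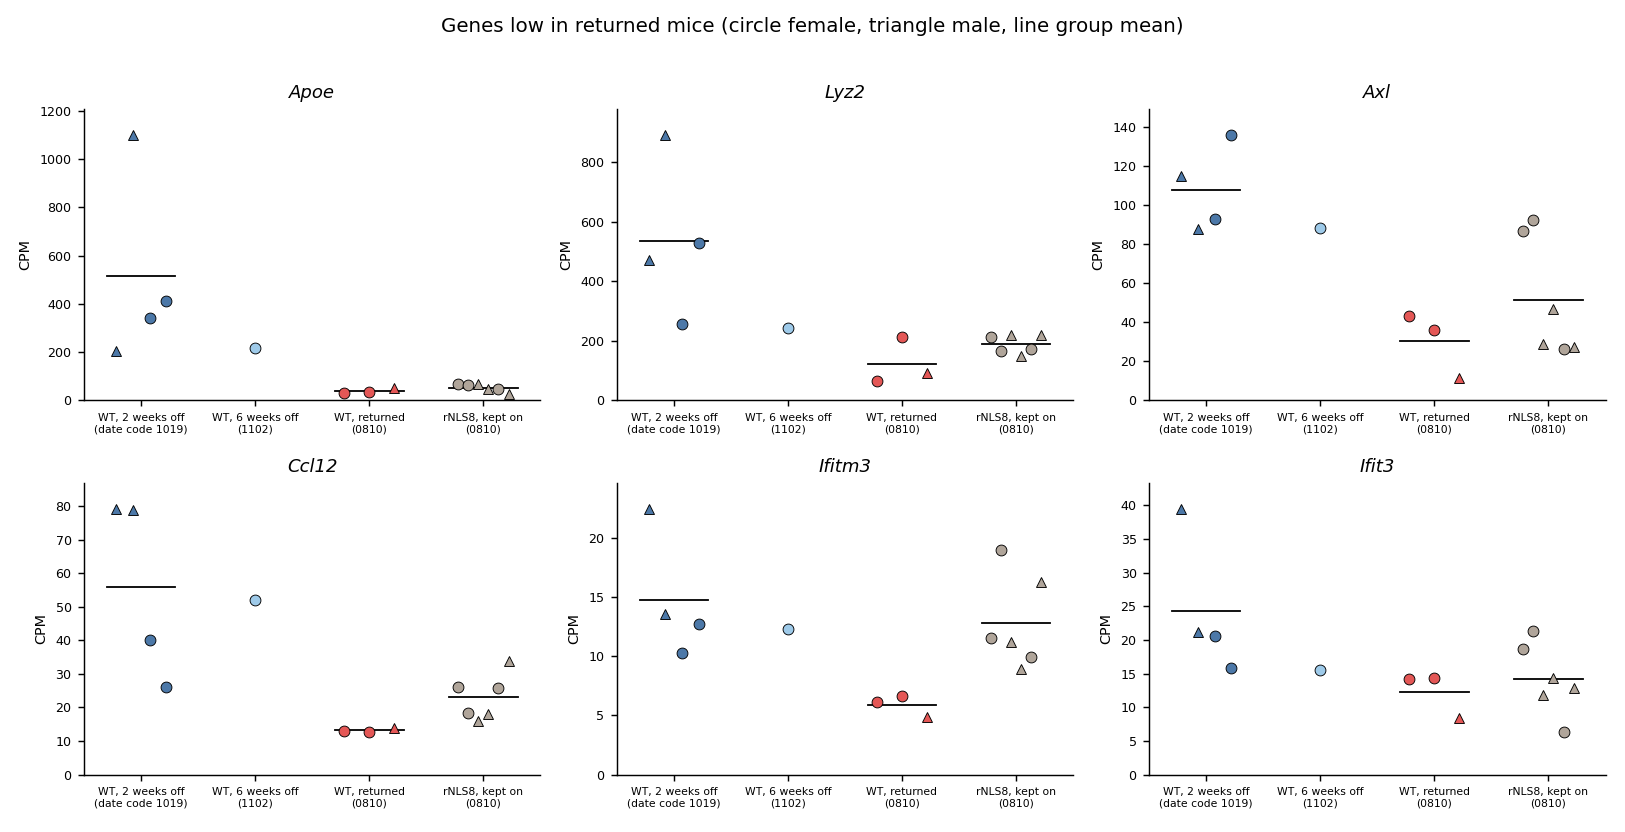
Levels in CPM of Apoe, Lyz2, Axl, Ccl12, Ifitm3 and Ifit3 for each control library, by diet group and date code. Circles are females, triangles males and lines group means. The 3 returned mice lie below the 4 off mice in every panel. The naming rule required this of Apoe, Lyz2, Axl and Ccl12, and Ifit3 was named after its values were seen. For Apoe the 6 rNLS8 mice of the same date code lie as low, while for Ifitm3 they lie with the off mice.

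Interferon response genes lay on the lower side. Type I interferon acts through an element in the promoters of antiviral genes. Promoters of 3 such genes are shown so that the element can be seen, as the 250 bases before the RefSeq start on GRCm38.p6, with matches to TTTCNNTTT on either strand in capitals. Rsad2 encodes viperin, Ifit3 a binder of foreign RNA and Isg15 a ubiquitin-like modifier. Their windows are chr12:26456453-26456702 (minus strand), chr19:34583279-34583528 (plus strand) and chr4:156200819-156201068 (minus strand).
Rsad2: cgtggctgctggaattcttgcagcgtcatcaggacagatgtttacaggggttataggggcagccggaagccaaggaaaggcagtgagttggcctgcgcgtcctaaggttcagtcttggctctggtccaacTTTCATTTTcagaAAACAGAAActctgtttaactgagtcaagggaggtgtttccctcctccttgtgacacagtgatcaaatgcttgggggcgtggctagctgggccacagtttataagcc
Ifit3: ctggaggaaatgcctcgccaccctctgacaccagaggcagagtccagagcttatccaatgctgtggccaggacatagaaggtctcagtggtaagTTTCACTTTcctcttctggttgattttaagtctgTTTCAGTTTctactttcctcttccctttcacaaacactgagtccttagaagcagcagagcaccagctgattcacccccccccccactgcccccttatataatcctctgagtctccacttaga
Isg15: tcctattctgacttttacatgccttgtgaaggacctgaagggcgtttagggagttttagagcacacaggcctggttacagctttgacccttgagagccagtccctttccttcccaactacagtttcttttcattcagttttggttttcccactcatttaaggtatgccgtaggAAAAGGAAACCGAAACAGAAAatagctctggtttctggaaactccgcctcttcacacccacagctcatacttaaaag
The motif was present in 18 of the 25 list members with a promoter in the table (72%), beside 10.8% of 27025 genes. A match describes the letters in the window and is not evidence of binding.

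Of 35 tested interferon genes, 7 were lower and 0 higher at an unadjusted p under 0.05, 9 had returned mice below all off mice, and 28 were negative. These compare with 4.14% and 5.47% of all genes. Rsad2 was at 0, 0.398 and 0 CPM in returned mice and at 7.64, 2.76, 4.56 and 2.13 CPM in off mice, a fitted difference of -4.83 ± 1.12 at a low level (adjusted p = 0.293). That fold rests on the few counts of Control 2. Ifitm3, which restricts virus entry, was at 6.17, 6.6 and 4.89 CPM against 22.4, 13.6, 10.3 and 12.7 CPM. Its difference was -1.30 ± 0.36 (adjusted p = 0.379). Ifit3 was at 14.2, 14.3 and 8.36 CPM against 39.4, 21.2, 20.6 and 15.9 CPM, with Control 13 close to the returned mice. It has a near-identical copy, Ifit3b, with which reads could be shared. Isg15 was at 2.34, 2.45 and 2.66 CPM against 7.1, 2.89, 3.66 and 4.2 CPM, so that the groups were apart but close, with a difference of -0.82 ± 0.49 that was -0.52 without Control 10. Control 10 was the highest off library for Rsad2, Ifitm3, Ifit3 and Isg15. Irf7, the transcription factor that amplifies the response, was at 5.11, 7.8 and 4.45 CPM against 12.8, 12, 12 and 9.03 CPM, a difference of -1.07 ± 0.65. In the fit with the missing TPM share as a further term, Isg15 was at -0.09 and Irf7 at -0.30. Ifit3, Isg15 and Irf7 were named for their roles after their values were seen. The median of the list was -0.49, -0.88 without Controls 12 and 13 and -0.29 without Control 3, with 5 members lower in either case. Mean log2 CPM over the list ran from 2.01 to 2.52 in returned mice and from 3.13 to 3.78 in off mice, with no overlap. This was not particular to interferon genes. The highest returned mean was also below the lowest off mean for splicing (6.36 against 6.47), complement (4.52 against 4.55) and circadian clock genes (3.25 against 3.35). The same held for cholesterol synthesis (3.45 against 3.64), lipid efflux and storage (4.03 against 4.05) and proliferation genes (0.62 against 0.68).

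Inflammatory cytokine and NF-kB genes were lower in 8 of 30 tested members at an unadjusted p under 0.05 and higher in 1, beside 4.14% and 2.97% of all genes. The median was -0.27, and -0.18 without Control 3 or without Control 11. Ccl12, a chemokine that attracts monocytes, was at 12.9, 12.6 and 14 CPM in returned mice and at 79, 78.9, 40 and 26.1 CPM in off mice. The 3 returned values were nearly equal and all below the off mice, among which the 2 males were highest, and the difference was -1.95 ± 0.35 (adjusted p = 0.164). Its neighbour Ccl2 was low in all libraries, at 0, 0.455 and 0.217 CPM against 3.25, 3.5, 6.03 and 1.25 CPM. Il1a, the alarm cytokine interleukin-1 alpha, was at 49.4, 65.2 and 72.8 CPM against 133, 238, 123 and 89.4 CPM, a difference of -1.12 ± 0.23 (adjusted p = 0.182). The transcription factor subunits Relb and Nfkb2 had differences of -1.34 ± 0.39 and -0.96 ± 0.34, and the adhesion molecule gene Icam1 one of -0.39 ± 0.13. With the missing TPM share as a further term, Relb was at -0.87 and Nfkb2 at -0.37. Ccl2, Relb, Nfkb2 and Icam1 were named after their values were seen. Of 17 tested complement genes, 3 were lower at an unadjusted p under 0.05, beside 4.14% of all genes. Their median was -0.22, -0.55 without Controls 12 and 13, -0.41 without Control 2 and -0.11 without Control 3. C3, the central component, was at 0, 0.0569 and 0 CPM in returned mice and at 1.86, 3.01, 2.31 and 1.76 CPM in off mice. The abundant C1qa overlapped between the groups. Of 22 antigen presentation genes, only H2-Q6, one of several similar class I genes that may share reads, was lower at an unadjusted p under 0.05, at 4.18, 3.59 and 0.815 CPM against 14.9, 9.03, 5.97 and 7.08 CPM.

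Genes of RNA splicing leaned to the lower side in this fit, and no member passed the adjusted test. Of 36 tested spliceosome and RNA-binding protein genes, 12 were lower and 0 higher at an unadjusted p under 0.05, and 33 were negative, beside 4.14% lower among all genes. The median was -0.33, and -0.18 without Control 12, when 6 members were lower. Srsf5, a splicing activator of the SR family, was at 92.3, 119 and 104 CPM in returned mice and at 157, 162, 327 and 169 CPM in off mice. Its difference of -0.98 ± 0.24 was -0.68 without Control 12, the highest library. Rsrc2, a nuclear speckle protein, was at 61.4, 61.9 and 57.2 CPM against 81.5, 104, 94 and 85.8 CPM. Prpf31, a core component of the tri-snRNP, and Ccnl1, a cyclin of the splicing kinases, had differences of -0.92 ± 0.19 and -1.17 ± 0.24. Tardbp, the mouse gene for TDP-43, overlapped between the groups at 41.7, 30.4 and 41.3 CPM against 35.6, 69.8, 67.3 and 49.5 CPM, a difference of -0.55 ± 0.23. It was named for the disease after its values were seen. Rbm3, which cold induces, was at 32, 42.5 and 32.3 CPM against 88.9, 70.2, 62.8 and 38.9 CPM.

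Impaired mitochondrial translation is known to trigger the integrated stress response, but translation was not measured here and a link was not tested. Markers of that response did not lean to the higher side in returned mice. Of 27 tested members, 4 were lower and 1, Ddit4, was higher at an unadjusted p under 0.05, beside 4.14% and 2.97% of all genes. The median was 0.02, and -0.06 without Controls 12 and 13, with a range of -0.33 to 0.04 over the alternatives. Nupr1, a stress-induced nuclear protein, is a target of ATF4. Its promoter is shown as the 250 bases before the RefSeq start (GRCm38.p6, chr7:126625471-126625720, minus strand), with the match to the ATF4-CEBP element TGATGNAA on either strand in capitals.
Nupr1: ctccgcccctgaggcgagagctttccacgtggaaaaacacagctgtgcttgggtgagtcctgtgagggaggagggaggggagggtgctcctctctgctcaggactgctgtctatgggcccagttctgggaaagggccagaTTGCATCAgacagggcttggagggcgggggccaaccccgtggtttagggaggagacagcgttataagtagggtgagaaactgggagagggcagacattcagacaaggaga
This element was found in 5 of 24 matched promoters of the list (20.8%), beside 3.91% of 27025 genes. Nupr1 was at 16, 14.1 and 16.8 CPM in returned mice and at 20, 43.1, 35.8 and 29.7 CPM in off mice, a difference of -1.03 ± 0.26 (adjusted p = 0.321). Ddit3, the CHOP transcription factor of the same pathway, was at 9.43, 8.76 and 9.67 CPM against 15.9, 22.2, 18.6 and 21 CPM. Its difference was -1.09 ± 0.28 (adjusted p = 0.321). Lonp1, a protease of the mitochondrial matrix, had a difference of -0.80 ± 0.23 and was named after its value was seen. Timm44, an import motor subunit of mitochondria, was at 14.4, 12.9 and 10.5 CPM against 27, 21.5, 26.1 and 26.8 CPM, a difference of -1.06 ± 0.22 (adjusted p = 0.182).

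Genes of the mitochondrial ribosome, the known off-target of tetracyclines, had a median of -0.07 over 80 tested members. At an unadjusted p under 0.05, 1 was higher and 2 were lower, beside 2.97% and 4.14% of all genes. For 10 of 80 the returned mice lay below all off mice, beside 5.47% of all genes. Mrps7 of the small subunit was at 22, 24.9 and 25.4 CPM in returned mice against 30.2, 48.9, 28.8 and 34.2 CPM. Mrpl40 of the large subunit was at 13, 12.8 and 16.9 CPM against 20, 28.8, 18.7 and 20.6 CPM. Transcripts encoded by the mitochondrial genome leaned higher, with 12 of 13 positive and a median of 0.27, which was -0.06 without Controls 12 and 13, 0.05 without Control 13 alone and 0.42 without Control 11. mt-Nd3 was at 63.5, 60.2 and 65.5 CPM in returned mice and at 18, 19.2, 42.7 and 22.8 CPM in off mice, a difference of 1.29 ± 0.25 (adjusted p = 0.182). mt-Nd1, another complex I subunit, and mt-Co1, of complex IV, overlapped with differences of 0.43 ± 0.16 and 0.33 ± 0.16, and these were 0.19 and 0.0027 without Controls 12 and 13. Nuclear-encoded respiratory chain genes had a median of 0.08 over 79 members, with 4 higher and 0 lower at an unadjusted p under 0.05, beside 2.97% higher among all genes. Uqcrfs1 of complex III was at 75.2, 79.2 and 70.8 CPM against 51.4, 66.3, 50.8 and 56.4 CPM. Mitochondrial translation and RNA factors had a median of 0.03 over 20 members, and 0.08 without Controls 12 and 13. In the main fit 0 were higher and 1 was lower, beside 2.97% and 4.14% of all genes.

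Several structural RNAs lay on the higher side, as did the missing TPM share. CT010467.1, an annotated ribosomal RNA, was at 2220, 2870 and 2900 CPM in returned mice and at 1470, 1620, 1670 and 1310 CPM in off mice, a difference of 0.82 ± 0.14 (adjusted p = 0.135). The mitochondrial ribosomal RNA mt-Rnr1 was at 220, 186 and 189 CPM against 105, 100, 122 and 74.8 CPM, a difference of 0.94 ± 0.23. The other mitochondrial ribosomal RNA, mt-Rnr2, overlapped at 1070, 1310 and 1470 CPM against 860, 1330, 758 and 519 CPM. Rn7s1, an RNA of the signal recognition particle with similar copies, was at 39.2, 23 and 25.5 CPM against 0, 1.72, 7.27 and 1.94 CPM, a difference of 3.43 ± 0.74, or 5.37 without Controls 12 and 13. Control 14, off for 6 weeks, had Rn7s1 at 28.1 CPM, inside the returned range. It had CT010467.1 at 1960 CPM, between the groups, and mt-Rnr1 at 109 CPM, inside the off range. Such RNAs lack or have short poly(A) tails, and their part in the other differences was not tested beyond the fit with the share as a term. Of 89 tested cytosolic ribosomal protein genes, 10 were higher and 0 lower at an unadjusted p under 0.05, beside 2.97% higher among all genes. The median was 0.15, and 0.06 with the share as a term. Without Controls 12 and 13 it was -0.01, with 3 members higher and 5 lower, so the direction rests on those libraries. Rps14 was at 109, 116 and 119 CPM against 84, 82.8, 69.5 and 76.7 CPM, and Rps28 at 42.7, 50.8 and 42 CPM against 30.7, 35.1, 27.4 and 30 CPM. Control 14 had 114 CPM and 43.2 CPM, inside the returned range for both. Among nuclear noncoding RNAs (15 tested), 1 was higher and 2 were lower, beside 2.97% and 4.14% of all genes. Their median of -0.43 had no stable direction, at -0.09 without Control 12 and 0.36 with a minimum of 5 CPM in 3 libraries. Gas5, a host of small nucleolar RNAs, was at 6.45, 9.22 and 16.9 CPM against 19.4, 26.7, 37.3 and 19.5 CPM. Malat1, the abundant speckle RNA, overlapped between the groups.

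Most identity genes overlapped between the 2 diets. Homeostatic genes had a median of 0.08 over 32 members (3 higher, 2 lower at an unadjusted p under 0.05, beside 2.97% and 4.14% of all genes). It was -0.03 without Controls 12 and 13 or without Control 1. Tmem119 was at 8660, 7770 and 9310 CPM in returned mice and at 7000, 7980, 6780 and 7960 CPM in off mice. P2ry12, the receptor that senses nucleotides, was at 7610, 7110 and 7900 CPM against 9250, 10800, 7510 and 6190 CPM, and both genes overlapped. Siglech, a sialic acid receptor, was at 1190, 1290 and 1680 CPM against 2340, 2860, 1670 and 1720 CPM, with a difference of -0.58 ± 0.16 (adjusted p = 0.378). Bin1, a membrane-bending protein, had a difference of -0.37 ± 0.12. On the higher side Mef2c, a transcription factor that restrains activation, had a difference of 0.30 ± 0.13 and was named after its value was seen. TGF-beta genes, which maintain this state, had a median of 0.25 over 15 members with 2 higher, and of 0.46 without Controls 12 and 13. Tgfbr1 was at 3130, 3240 and 3290 CPM against 2690, 1300, 2600 and 2610 CPM, a difference of 0.48 ± 0.20 that was 0.29 without Control 11 and 0.74 without Controls 12 and 13. Lysosome and phagocytosis genes had a median of -0.05 over 35 members (-0.14 without Controls 12 and 13, when 3 were higher and 5 lower), with 3 higher and 1, Axl, lower. Npc1, the lysosomal cholesterol exporter, was at 280, 210 and 224 CPM against 168, 127, 185 and 159 CPM. In bulk libraries fewer cells of a type and less RNA per cell cannot be told apart.

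The other genes named by smallest p were of mixed function. On the lower side, Pou2f2, the lymphoid and myeloid transcription factor OCT2, was at 24.8, 22.2 and 26.7 CPM in returned mice and at 65.8, 50.7, 77.9 and 64.8 CPM in off mice, a difference of -1.42 ± 0.21 (adjusted p = 0.0575). Bin2, a membrane-bending protein of leukocytes, was at 352, 340 and 548 CPM against 740, 1000, 825 and 822 CPM, a difference of -1.03 ± 0.19 (adjusted p = 0.164). Fam129a, a regulator of translation under stress, was at 4.11, 12.4 and 1.47 CPM against 79.4, 28.5, 52.3 and 53 CPM, a difference of -3.54 ± 0.66 (adjusted p = 0.164). On the higher side, Nbea, a scaffold of vesicle traffic, was at 66.8, 51.7 and 54.2 CPM against 32.6, 26.3, 35.7 and 23.2 CPM. Prps1, a nucleotide synthesis enzyme, was at 38.3, 34 and 37.5 CPM against 21.8, 15.2, 19.2 and 18.7 CPM. Rrm2b, a p53-induced subunit of ribonucleotide reductase, was at 17.4, 19.3 and 21.7 CPM against 11.1, 11.8, 7.49 and 8.02 CPM. Cstf2t, an RNA cleavage factor, was at 120, 121 and 125 CPM against 89.8, 83.4, 80.5 and 90.1 CPM. The rule that named these 7 genes required that the groups do not overlap. It also named Fkbp5, Sgk1, Zbtb16, mt-Nd3, mt-Rnr1, Rn7s1, Apoe, Ccl12, Axl, Lyz2, Timm44, Prpf31 and Ccnl1, so their lack of overlap was fixed by the choice.

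The remaining lists held few members on either side at an unadjusted p under 0.05, beside 2.97% higher and 4.14% lower among all genes. Matrix metalloproteinases and their inhibitors, an enzyme family that doxycycline inhibits, had a median of -0.14 over 17 members (-0.54 without Control 1), with 0 higher and 1 lower. That gene was Mmp9, a neutrophil product, at 0 in 6 of the 7 libraries and at 6.37 CPM in Control 12. Circadian clock genes had a median of -0.19 over 21 members, -0.37 without Controls 12 and 13 and -0.04 without Control 10. In that list 1 gene was higher, Hlf, at 14.4, 12.6 and 28.6 CPM in returned mice and 12.7, 5.1, 4.28 and 4.39 CPM in off mice. Arntl, which encodes the core clock activator BMAL1, was at 10.8, 18 and 15.6 CPM against 18.5, 23.7, 26.6 and 26.4 CPM, and Dbp and Nr1d1, its output genes, overlapped. Cholesterol synthesis genes had a median of -0.14 over 23 members with 2 lower. Sqle, which makes squalene epoxide, was at 0.142, 1.71 and 3.37 CPM against 6.74, 5.28, 11.2 and 6.77 CPM, and Fdps, which makes farnesyl diphosphate, at 21.4, 15.4 and 13.4 CPM against 25.9, 33.2, 25.8 and 22.9 CPM. Lipid efflux and storage genes (20 tested, 1 higher, 1 lower) had a median of -0.15, of -0.09 without Controls 12 and 13, and of -0.02 without Control 3 or without Control 12. Cytosolic chaperones had 1 of 23 higher, Dnajb1, at 143, 106 and 126 CPM against 90, 88.4, 96.1 and 104 CPM. The unfolded protein response had 2 of 20 higher, the endoplasmic reticulum chaperones Calr and Canx, with differences of 0.26 ± 0.12 and 0.30 ± 0.13, the latter 0.18 without Control 3.

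Immediate early and dissociation stress genes had 2 of 30 higher and 2 lower, with Klf6 at 341, 341 and 317 CPM against 244, 259, 253 and 286 CPM and a median of -0.16 that was 0.22 without Controls 12 and 13. Klf2, a factor of the same family, overlapped with a difference of 0.51 ± 0.22, or 0.84 without Controls 12 and 13 and 0.31 without Control 3. Glycolysis genes had 1 of 24 higher, the lactate exporter Slc16a3, at 98, 67 and 72.8 CPM against 48.3, 40.2, 47.5 and 59.2 CPM. Antioxidant genes had 2 of 25 higher and 1 lower, among the higher ones Gpx1, a peroxide-reducing enzyme, at 563, 535 and 454 CPM against 275, 440, 363 and 449 CPM. Proliferation genes had 0 of 40 higher and 1 lower, with a median of -0.31 that was -0.60 without Control 3 and -0.06 without Control 12. Mki67, their best known marker, was at 0, 0 and 0.923 CPM against 0.842, 4.3, 4 and 1.94 CPM. Replication-dependent histone genes had 2 of 25 higher and 1 lower at levels near the floor. The counts for these lists are at an unadjusted p under 0.05, beside 2.97% higher and 4.14% lower among all genes. The plot of list medians sets these groups side by side.

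**Figure D5:**
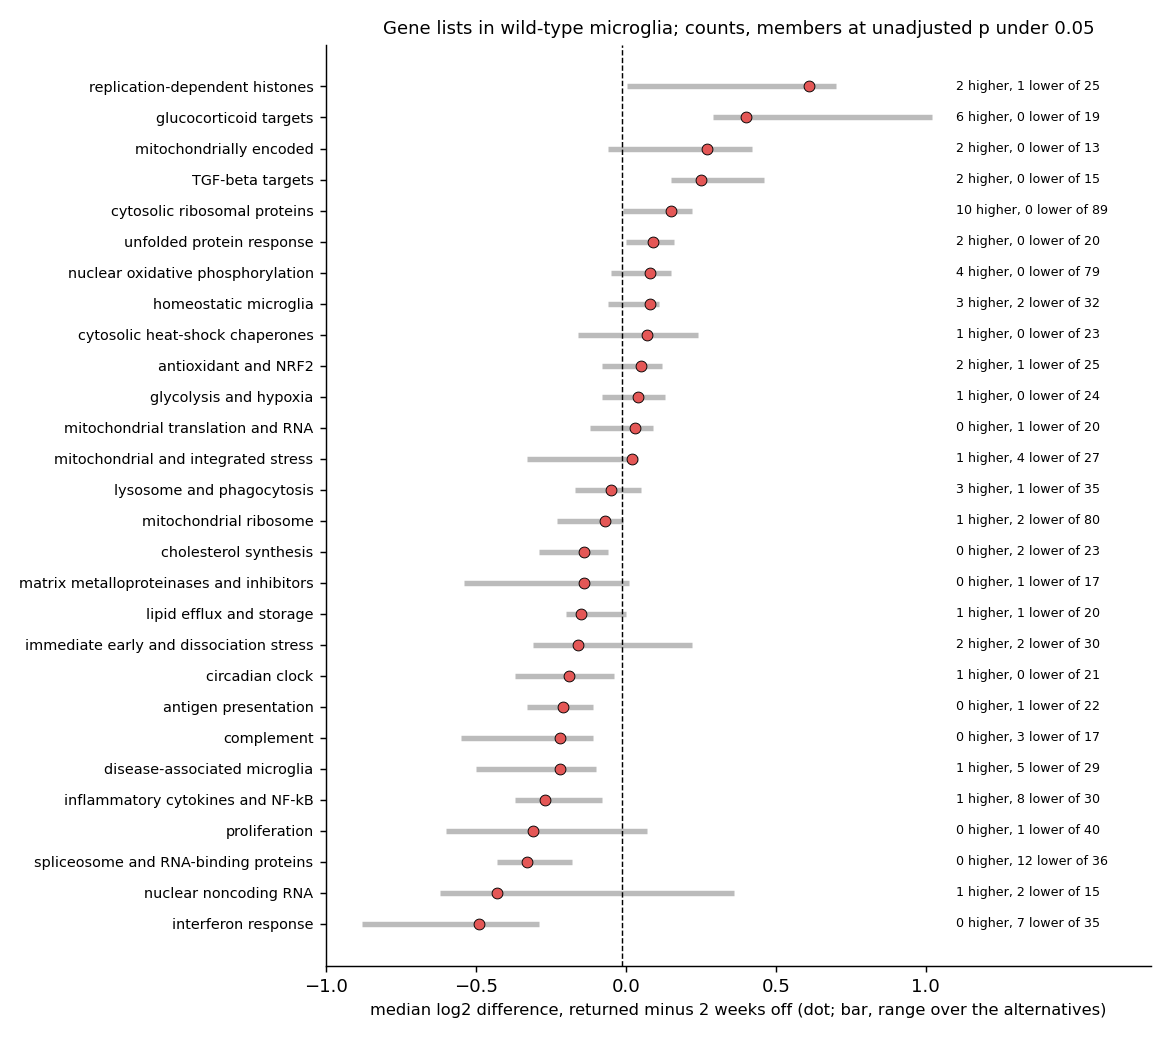
Median log2 difference, returned minus off, for 28 gene lists (dots; the list of sex-linked genes is not drawn), with the range over the alternative settings (bars). The dashed line is the median of all genes, and the counts give members at an unadjusted p under 0.05. Glucocorticoid targets (0.40) keep to the right of the line and interferon (-0.49) and splicing genes (-0.33) to its left in every setting, while the bar of the mitochondrially encoded list crosses it.

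Within date code 0810, the returned mice could be set beside the 6 rNLS8 mice kept on doxycycline, a contrast in which genotype and drug history differ and the date code does not. This contrast shares the returned libraries with the first, and the contrast of rNLS8 mice with off mice shares the off libraries, so their values are given side by side and are not independent. edgeR called 0 genes between returned and rNLS8 mice (0%), with 668 at an unadjusted p under 0.05 (338 higher, 2.23%, and 330 lower, 2.18%), and DESeq2 called 47. Between rNLS8 mice and off mice edgeR called 13 genes (0.0857%), 4 higher and 9 lower, and DESeq2 called 221.

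Apoe, Pou2f2, Bin2, mt-Nd3 and CT010467.1 were among the 13. Apoe ranged from 26.1 to 68.3 CPM in rNLS8 mice (median 55.4), a range that held all 3 returned mice, and fell by 3.23 on the log2 scale relative to off mice (SE 0.39, adjusted p = 0.00711 by edgeR). Pou2f2 (20.4 to 39.5 CPM, median 28.4) fell by 1.22 and Bin2 (335 to 487 CPM, median 447) by 0.97, both with an adjusted p of 0.0225. mt-Nd3 (59.3 to 90.1 CPM, median 67.6) rose by 1.49 and CT010467.1 (2220 to 3310 CPM, median 2640) by 0.82, also with an adjusted p of 0.0225. For Apoe, Pou2f2, mt-Nd3 and CT010467.1 every returned library lay inside or at the edge of the range of the rNLS8 mice. Control 14, of another date code, lay at 49 CPM for Pou2f2, 632 CPM for Bin2 and 60.1 CPM for mt-Nd3. Between returned and rNLS8 mice Apoe differed by -0.43 ± 0.42. For Pttg1 and Tmem144, also among the 13, the returned mice overlapped the off mice. Pttg1 was at 13.6, 1.42 and 29.3 CPM in returned mice and at 9.9 to 24.4 CPM in off mice. In rNLS8 mice it was at 1.42 to 2.24 CPM. Tmem144 was at 52.6, 32 and 27.2 CPM against 27.9 to 45.9 CPM, and at 7.8 to 21.5 CPM in rNLS8 mice. Returned minus rNLS8, they differed by 2.94 ± 0.50 and 1.67 ± 0.29 (adjusted p = 0.267 for both by edgeR).

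Other genes differed between the returned mice and rNLS8 mice of the same date code at an unadjusted p under 0.05, though none passed the adjusted test. Fkbp5 ranged from 130 to 281 CPM in rNLS8 mice (median 188), below all returned mice, and the difference was 0.79 ± 0.26. Sgk1 (762 to 1220 CPM, median 1180) differed by 0.33 ± 0.14, Ddit4 (5.44 to 33.1 CPM, median 19.2) by 1.69 ± 0.62 and Zbtb16 (0.197 to 4.65 CPM, median 1.26) by 2.08 ± 0.90. In all, 4 of the 19 glucocorticoid targets were higher, beside 2.23% of all genes, and 1 was lower. Rsad2 (1.57 to 9.39 CPM, median 3.25) differed by -4.82 ± 1.09 and Ifitm3 (8.88 to 19 CPM, median 11.4) by -1.11 ± 0.34. Axl (26.1 to 92.6 CPM, median 38) differed by -0.97 ± 0.38, but the groups overlapped. Controls 1 and 2 lay inside its rNLS8 range at 43.3 and 36.1 CPM, and Control 3 below it at 11.5 CPM. Fam129a (14 to 81.7 CPM, median 31.2) differed by -2.88 ± 0.61 and Ccl2 (0.765 to 5.77 CPM, median 3.04) by -3.66 ± 0.98. Of the 35 interferon genes 4 were lower, beside 2.18% of all genes, and the list's median was -0.03 in this contrast. Splicing genes had a median of -0.06 with 0 of 36 at an unadjusted p under 0.05 in either direction. Glucocorticoid targets had a median of 0.25. Disease-associated genes had a median of 0.03, inflammatory genes of -0.04 and mitochondrially encoded genes of -0.31. Between rNLS8 and off mice, these 3 lists had medians of -0.27, -0.28 and 0.61. In that contrast the medians were -0.29 for interferon, -0.25 for splicing and 0.24 for glucocorticoid genes.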

How the data were processed

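Microglia had been sorted on CD11b and CD45 with dead cells excluded and sequenced with a full-length low-input cDNA kit, per the labels' protocols. The authors deposited expected counts (estimated fragments per gene) and TPM values for 45706 genes and 35 libraries, and a design table with the sex of each mouse and a count of effective alignments. The submitters' processing notes list RSEM, DESeq2 and mm10 without versions. RSEM shares reads among similar copies by estimation, so ribosomal protein and histone values carry that uncertainty.

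Expected counts were rounded to whole numbers and fitted with edgeR 4.0.16 (quasi-likelihood, TMM, filter by group, Benjamini-Hochberg adjustment) over the 14 control libraries with group and sex as terms. The design table's sex was used because 2 libraries had Xist and Ddx3y counts of the sex opposite to their labels. SE comes from the F statistic. The script was tested on simulated data. Within a group, no pair of libraries was close enough to be 1 library deposited again (chi-square per degree of freedom 31.5 to 119). Control 11 stood apart, with 84.6 to 119 in its pairs with other off libraries and 31.5 to 43.8 in the remaining off pairs. Returned libraries paired with Controls 10, 12 and 13 gave 45.5 to 57.6, and paired with Control 11 they gave 91.3 to 97.3.

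Members, the 29 gene lists and 14 marker lists were chosen with earlier results of these data known. Named genes were the 10 of smallest p in each direction with at least 5 CPM in either group and no overlap (predicted genes and pseudogenes left out), the 2 of smallest p in each list, and 24 fixed genes. Not every named gene is described, and a few are not reported here. Alternatives were DESeq2 1.42.0, limma 3.58.1 on log2 of TPM plus 1 or 0.1, other filters, scalings, terms and sets of libraries.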

Additional observations from a re-analysis of the deposited data

Results flagged for a closer look

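In the groups of 4 off mice and 6 rNLS8 mice, 206 sets of values were checked for a single library far from the rest, and 10 were found, about as many as the 1 in 20 that chance gives. In off mice, Control 11 was low for Timm44 (21.5 CPM, next 26.1), for Tgfbr1 (1300 CPM, next 2600) and for the mean of the TGF-beta list (5.34 log2 CPM, next 5.95). Control 12 was high for Srsf5 (327 CPM, next 169) and for the metalloproteinase list (2.73 log2 CPM, next 2.03). Control 10 was high for Hlf (12.7 CPM, next 5.1) and for the circadian list (3.70 log2 CPM, next 3.38). Control 13 was high for Lonp1 (39.9 CPM, next 29.5). Among rNLS8 mice, Control 7 was high for Uqcrfs1 (95.3 CPM, next 71.9) and for the histone list (0.75 log2 CPM, next 0.06).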

How the results depend on the processing

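No paired analysis was possible because the 2 groups share no replicate number. The count of genes called between returned and off mice was 0 and depended on the fit. It was 16 with all 35 libraries, 1 without a sex term, 127 by DESeq2, 184 without the low-count filter, 2 at a minimum of 5 CPM in 3 libraries, 12 by limma on log2 of TPM plus 1 and 2 with plus 0.1. Leaving out each library in turn gave 0 to 3. Other settings, among them the fit without Controls 12 and 13, which was chosen after seeing the data, gave 0. DESeq2 and the unfiltered fit shared 68 genes, 53.5% of the first and 37% of the second. Between rNLS8 and off mice the count of 13 became 74 with all libraries, 221 by DESeq2 and 290 without the filter. Between returned and rNLS8 mice the count of 0 became 2, 47 and 132. Over 90 gene differences and 1486 pairs of gene and alternative, no difference changed sign, 105 passed the threshold and 1381 did not change side. Those 90 were chosen after values were seen and leave out genes given by level only, such as Per1 and Itgam. The list medians for glucocorticoid, interferon, splicing, disease-associated and inflammatory genes kept their sign in all 19 alternatives. With 3 and 4 libraries, the fits differed in which differences they called, and DESeq2 called some as small as that of Klf6 (0.36).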
